A study of Homo sapiens with 16 samples.

Results

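The mitochondrial respiratory chain is described here through 101 genes for its protein subunits, out of 58735 gene IDs in the count table. They were chosen by name: the 13 protein genes of the mitochondrial genome, the protein-coding genes whose symbols begin with NDUFA, NDUFB, NDUFC, NDUFS, NDUFV, UQCR, COX4I, COX5, COX6, COX7, COX8, ATP5F, ATP5M or ATP5P, and SDHA, SDHB, SDHC, SDHD and CYC1. Genes of the NDUFAF assembly factors and read-through transcripts were left out. Of the 101 genes, 88 are nuclear and 13 mitochondrial, and 46 belong to complex I, 4 to complex II, 11 to complex III, 20 to complex IV and 20 to complex V. RNA was sequenced from 2 human germ cell tumour lines. NT2/D1, which the labels call NTERA-2, is an embryonal carcinoma line, and TCam-2 is a seminoma line. Each line was transfected with a mimic of the microRNA MIR9-2-5p or with a scrambled mimic and collected 3 days later, with 4 libraries in each of the 4 groups. NT2/D1 cells grew in DMEM and TCam-2 cells in RPMI with added non-essential amino acids and sodium pyruvate, both with fetal bovine serum and glutamine, so line and medium cannot be told apart. RNA came from whole cultures.

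The 16 libraries held 14167738 to 22427162 counts. The seminoma markers SOX17, TFAP2C, PRDM1, KIT and NANOS3 summed to 986 to 1078 CPM (counts scaled to a common library size with TMM factors) in scrambled TCam-2 libraries and 52.0 to 58.0 CPM in scrambled NT2/D1 libraries, where SOX17 was at 3 counts or fewer. With MIR9-2-5p they summed to 1319 to 1472 CPM in TCam-2 and 63.3 to 65.4 CPM in NT2/D1. In TCam-2 3 of these 5 genes were higher, NANOS3 was lower and SOX17 was not called. Of the 3 tested in NT2/D1, 2 were higher and 0 lower. The embryonal carcinoma markers SOX2, DNMT3B, GDF3, LEFTY1, SALL4 and LIN28A summed to 3595 to 3769 CPM in scrambled NT2/D1 libraries and 1035 to 1077 CPM with MIR9-2-5p. In TCam-2 cells the same list went from 790 to 845 CPM down to 468 to 495 CPM. That sum was carried mostly by LIN28A, with means of 544 CPM in scrambled and 282 CPM in MIR9-2-5p libraries. Of the 5 genes of the list tested in TCam-2, 3 were lower, SALL4 was higher and GDF3 was not called. In NT2/D1 all 5 tested genes of the list were lower. A list of 7 fibroblast and feeder markers summed to 155 to 215 CPM in scrambled and 436 to 524 CPM in MIR9-2-5p NT2/D1 libraries, against 471 to 498 and 188 to 211 CPM in TCam-2. In NT2/D1 all 5 tested genes of that list were higher, and in TCam-2 4 of 5 were lower; DCN was at 3 counts or fewer in every library of both NT2/D1 groups and of MIR9-2-5p TCam-2, and FAP in every library of both TCam-2 groups and of scrambled NT2/D1. COL1A1 carried most of that sum in NT2/D1, with means of 128 CPM in scrambled and 351 CPM in MIR9-2-5p libraries. COL1A2 did so in TCam-2, at 398 and 163 CPM. TFAP2C carried most of the seminoma sum in TCam-2, at 700 and 952 CPM. Over all tested genes 32.7% were lower and 33.7% higher in TCam-2, and 29.1% and 30.2% in NT2/D1. The part of these marker shifts in the respiratory chain values below was not tested.

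The respiratory chain moves electrons from NADH and succinate to oxygen through complexes I to IV, and complex V, the ATP synthase, uses the resulting proton gradient to make ATP. Complexes I, III, IV and V are built from subunits of both genomes, whereas complex II is nuclear encoded throughout. Mitochondrial genes are transcribed as long polycistronic RNAs that are cut into single transcripts, whereas each nuclear gene has its own promoter, and transcription factors such as NRF1, the ETS-domain factor GABP and YY1 are known to act at many of them.

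A microRNA pairs through its seed, bases 2 to 8, with sites that lie mostly in 3′ untranslated regions (UTRs). The mature strand and the sites of the nuclear ATP synthase genes that carry a match and that changed in both lines are printed because they show what letters the mimic could pair with. The microRNA comes from RefSeq on GRCh38.p14, with the seed in capitals. The mimic carries the strand that MIR9-2 encodes at chr5:88666902-88666924, minus strand. The sites were read 5′ to 3′ along the messenger RNA, with the match to the seed in capitals. Both are 7-base matches to bases 2 to 8, in the 3′ UTR of the canonical transcript in GENCODE release 44, at chr20:59028553-59028559 and chr2:175177260-175177266 of GRCh38, both on the minus strand.
hsa-miR-9-5p: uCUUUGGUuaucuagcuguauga
ATP5F1E: aatatttagtgACCAAAGggatacagaaa
ATP5MC3: aaagagcagtcACCAAAGttcctcaagtg

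Seed matches were scarce among these genes. Of 87 nuclear respiratory chain genes with an annotated 3′ UTR, 0 held the 8-base site ACCAAAGA and 8, or 9.2%, held a 7-base site (ACCAAAG, or CCAAAGA). Among 14260 protein-coding genes tested in NT2/D1 cells, 4.84% held the 8-base site and 23.98% a site of 7 or 8 bases. The median 3′ UTR was 192 bases in the respiratory chain genes and 1348 bases in that background. Besides ATP5F1E and ATP5MC3, the 7-base sites lay in ATP5MG, COX7B, NDUFA9, NDUFB5, UQCR10 and UQCRB. Of the 8 genes with a site, MIR9-2-5p TCam-2 libraries had 5 lower, 0 higher and 3 not called, and the NT2/D1 comparison had 2 lower, 2 higher and 4 not called. Of the 74 tested nuclear genes without a 7-base site, 50 were lower in TCam-2 and 6 higher. Of the 75 such genes tested in NT2/D1, 9 were lower and 11 higher. Over all tested genes 32.7% were lower and 33.7% higher in TCam-2, and 29.1% and 30.2% in NT2/D1. The NT2/D1 counts of the genes with a site, 2 of 8 in each direction, were near those shares. A match is a description of letters and not a shown binding site.

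Promoters from 250 bases before to 50 after the start were matched in the RefSeq table (GRCh38.p14) for 69 of the nuclear genes and searched on both strands. The 10-base NRF1 motif, whose letters stand in capitals in the windows printed here, lay in 4 of them, 5.8%, against 1.72% of all 15306 promoters. Next, the motif CCGGAAGT of ETS-domain factors lay in 10, 14.49% against 6.31%, and AAGATGGC of YY1 in 11, 15.94% against 3.97%. The NRF1 windows, 30 bases each with the motif in capitals, are printed because they span complexes I, II and V and a range of responses.
NDUFA8: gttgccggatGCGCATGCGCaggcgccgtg
NDUFB4: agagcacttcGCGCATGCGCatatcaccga
SDHD: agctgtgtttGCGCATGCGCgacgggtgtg
ATP5F1C: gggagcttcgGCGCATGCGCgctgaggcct

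These windows lie at chr9:122159764-122159793 (minus strand), chr3:120596167-120596196 (plus), chr11:112086753-112086782 (plus) and chr10:7788145-7788174 (plus). The motif is its own reverse complement. In TCam-2 cells the log2 fold changes of these genes were -0.28 for NDUFA8, -0.28 for NDUFB4, 0.05 for SDHD and -0.37 for ATP5F1C, and SDHD was the one not called. The NDUFA8 call was lost without MIR9-2-5p or scrambled replicate 2. Of the 11 genes with the YY1 motif, 7 were lower in TCam-2 and 0 higher. Of the 10 with the ETS motif, 3 were lower and 1 higher, and of the 41 tested genes with none of these motifs in the window, 32 were lower and 3 higher. Of all genes tested in TCam-2, 32.7% were called lower and 33.7% higher. In NT2/D1 the YY1 group had 0 lower and 3 higher, the ETS group 4 and 2, the NRF1 group 0 and 0, and the 42 tested genes with none of the motifs 4 and 7, where 29.1% of all genes were called lower and 30.2% higher.

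The response to MIR9-2-5p was asked of each line on its own, with a gene called when its adjusted p in edgeR was under 0.05. In TCam-2 cells 55 of 82 tested nuclear genes were lower, or 67.1%, where 32.7% of all 16847 tested genes were called lower. Another 6 were higher, against 33.7% of all genes, and 21 were not called. The median log2 fold change of the nuclear genes was -0.46, beside 0.02 for all tested genes. In NT2/D1 cells 11 of 83 tested nuclear genes were lower and 13 higher, against 29.1% and 30.2% of all 17586 tested genes, and 59 were not called. Their median was 0.01, beside -0.02 for all genes. Both NT2/D1 shares were below the background. The NT2/D1 count of lower genes was 7 without MIR9-2-5p replicate 2 or scrambled replicate 3, and 6 without scrambled replicate 4. Against a minimum fold of 1.5, 18 nuclear genes were lower in TCam-2 and 2 higher, where 11.8% and 13% of all genes were called. In NT2/D1 the same rule called 0 lower and 1 higher, where 9.75% and 12.5% of all genes were called. The 5 genes not tested in NT2/D1 were COX4I2, COX6A2, COX7B2, COX8C and ATP5MGL, tissue-restricted or duplicated forms with few or no counts, and TCam-2 also lacked a test for COX6B2. COX4I2 had a count of 0 in all 16 libraries, which does not show that it was absent from the cells.

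**Figure D1:**
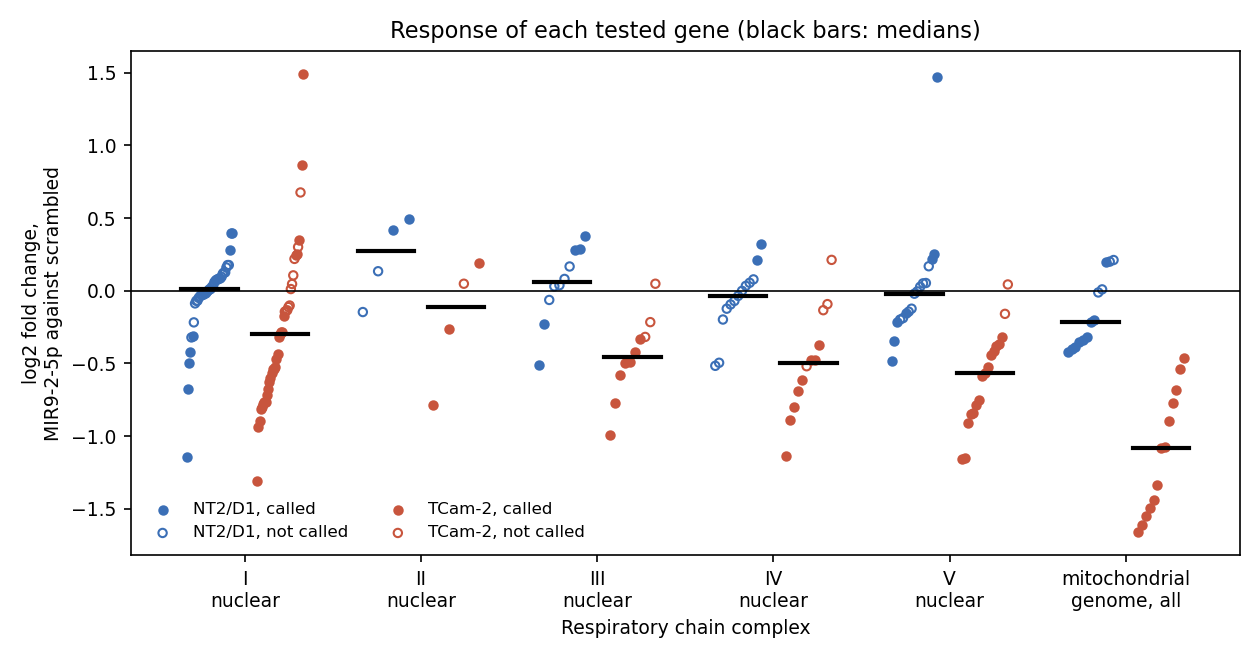
The log2 fold change of each tested respiratory chain gene, MIR9-2-5p against scrambled, is plotted by complex and genome (blue, NT2/D1; red, TCam-2; filled, adjusted p under 0.05 in edgeR; open, not called; black bars, medians). The bars of the nuclear genes run from -0.04 (complex IV) to 0.28 (complex II) in NT2/D1 and from -0.56 (complex V) to -0.11 (complex II) in TCam-2, and the 13 mitochondrial genes lie lowest in TCam-2 (median -1.08).

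The 13 mitochondrial protein genes moved further than the nuclear ones in TCam-2. All 13 were lower, with log2 fold changes from -1.66 to -0.46 and a median of -1.08, and 8 passed the minimum fold of 1.5. Over all genes tested in TCam-2, 32.7% were lower and 11.8% were lower against that minimum fold. In NT2/D1 8 were lower, 1 was higher and 4 were not called, with a median of -0.21, and 0 passed the minimum fold in either direction. Over all genes tested in NT2/D1, 29.1% were lower and 30.2% higher, and 9.75% and 12.5% against the minimum fold. The difference of the responses, tested as an interaction over all 16 libraries, was called for all 13, each with the lower response in TCam-2, where 27.9% of 19576 genes were called in that direction. Its median was -1.11 on the log2 scale. The NT2/D1 and TCam-2 comparisons share no libraries, and the interaction uses those of both.

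MT-CO2 encodes the complex IV subunit that takes electrons from cytochrome c. It read 5818, 6916, 6053 and 6072 CPM in scrambled TCam-2 libraries and 2120, 1809, 1959 and 1753 CPM with MIR9-2-5p. In NT2/D1 it read 6021, 6293, 6699 and 6645 CPM in scrambled and 4803, 5333, 4923 and 5049 CPM in MIR9-2-5p libraries. The groups did not overlap in either line, and scrambled libraries of both lines covered similar levels. Its log2 fold change was -1.66 ± 0.07 (SE) in TCam-2 and -0.35 ± 0.05 in NT2/D1, and the 2 responses differed by -1.33 ± 0.09 (adjusted p = 5.7e-12, edgeR). MT-CO3, another core subunit of complex IV, changed by -1.61 ± 0.07 and -0.40 ± 0.06. MT-CO1, which holds the oxygen-reducing centre, changed by -1.08 ± 0.06 and -0.42 ± 0.05.

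The change was uneven along the mitochondrial genome. MT-ND1 and MT-ND2, membrane subunits of complex I and the protein genes nearest the ribosomal RNA genes, changed least in TCam-2, by -0.46 ± 0.07 and -0.54 ± 0.07. MT-ND4, MT-ND3 and MT-ND6, also of complex I, changed by -1.44 ± 0.06, -1.49 ± 0.10 and -1.55 ± 0.10. MT-ND6 is transcribed from the opposite strand to the other 12 protein genes. The library kit does not mark strand, so the MT-ND6 counts could include reads from RNA of the other strand, and its change is uncertain to that extent. MT-ND4 read 5914, 6173, 6026 and 5807 CPM in scrambled TCam-2 libraries and 2367, 1959, 2197 and 2086 CPM with MIR9-2-5p, without overlap. MT-CYB, the mitochondrial subunit of complex III, changed by -0.68 ± 0.06, and MT-ATP6, the proton channel subunit of complex V, by -1.34 ± 0.07. MT-ND5 was called in opposite directions, with 0.20 ± 0.07 in NT2/D1 (adjusted p = 0.023, edgeR) and -0.90 ± 0.07 in TCam-2. MT-ND4L, MT-ATP8 and MT-CYB also had NT2/D1 values above 0, at 0.21 ± 0.14, 0.20 ± 0.19 and 0.01 ± 0.06, and these were not called. The NT2/D1 call of MT-ND5 was lost with upper-quartile scaling, without MIR9-2-5p replicate 4 and without scrambled replicate 1 or 4.

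MT-ATP8 and MT-ND4L are short genes that share bases with MT-ATP6 and MT-ND4, so their reads could be split between genes, and their values varied more between libraries. MT-ATP8 read 38.7, 63.9, 62.1 and 55.0 CPM in scrambled TCam-2 libraries and 40.6, 16.1, 21.8 and 22.2 CPM with MIR9-2-5p. MIR9-2-5p replicate 1 lay inside the scrambled range and the other 3 below it. The change was -1.07 ± 0.28 (adjusted p = 0.0095, edgeR), and the call was lost without MIR9-2-5p replicate 3. MT-ND4L changed by -0.77 ± 0.20 in TCam-2 and was not called in NT2/D1.

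**Figure D2:**
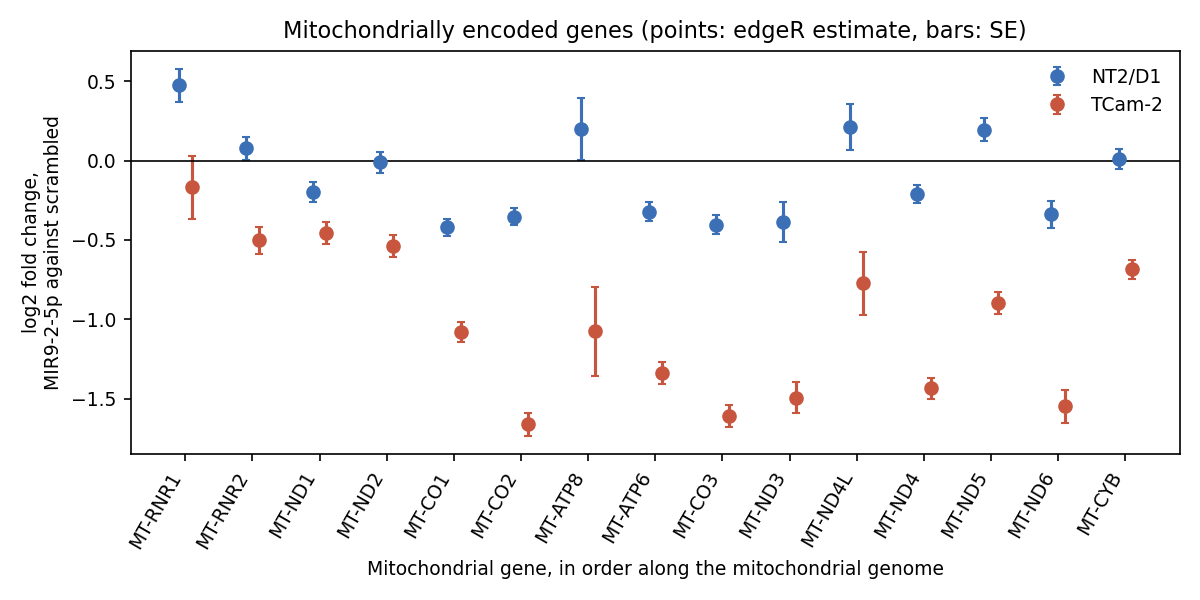
The log2 fold change of the 2 ribosomal RNA and 13 protein genes of the mitochondrial genome, MIR9-2-5p against scrambled, is plotted in genome order for NT2/D1 (blue) and TCam-2 (red), with bars of 1 standard error (SE). TCam-2 points run from -0.17 at MT-RNR1 to -1.66 at MT-CO2 and lie below the NT2/D1 points at every gene.

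The ribosomal RNA genes of the same genome were measured beside the protein genes. MT-RNR1, of the small ribosomal subunit, changed by 0.47 ± 0.10 in NT2/D1 (adjusted p = 0.00095, edgeR) and by -0.17 ± 0.20 in TCam-2, which was not called. MT-RNR2, of the large subunit, changed by 0.08 ± 0.07 in NT2/D1, not called, and by -0.50 ± 0.08 in TCam-2. The 2 responses differed for both, by -0.66 for MT-RNR1 (adjusted p = 0.035, edgeR) and -0.60 for MT-RNR2. The labels do not say whether ribosomal RNA was depleted or poly(A) RNA selected, which sets how much of these RNAs a library holds.

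As shares of all counts, the 13 mitochondrial protein genes took 3.48, 3.28, 3.20 and 3.18% in scrambled TCam-2 libraries and 1.58, 1.47, 1.73 and 1.57% with MIR9-2-5p. In NT2/D1 they took 4.21, 4.86, 4.71 and 4.39% in scrambled and 3.67, 3.65, 3.87 and 3.88% in MIR9-2-5p libraries. The groups did not overlap in either line. The mean differed by -1.70 percentage points in TCam-2 and by -0.77 points in NT2/D1, each with p = 0.0286 in an exact two-sided permutation test, the smallest that 4 against 4 can give (0.0368 after Benjamini-Hochberg adjustment over 18 such tests). Together the 88 nuclear genes took 1.20% ± 0.07 (SD, n = 4) in scrambled and 0.939% ± 0.021 in MIR9-2-5p TCam-2 libraries (exact p = 0.0286, permutation test). In NT2/D1 they took 0.956% ± 0.050 and 0.953% ± 0.027, a difference smaller than the spread between replicates (exact p = 0.886, permutation test). Counts of the 13 mitochondrial genes stood at 2.75 ± 0.25 (SD, n = 4) times those of the 88 nuclear genes in scrambled TCam-2 libraries and 1.69 ± 0.12 times with MIR9-2-5p. The NT2/D1 ratios were 4.76 ± 0.38 and 3.96 ± 0.14. In bulk RNA, fewer cells carrying these transcripts and less of them per cell cannot be told apart.

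**Figure D3:**
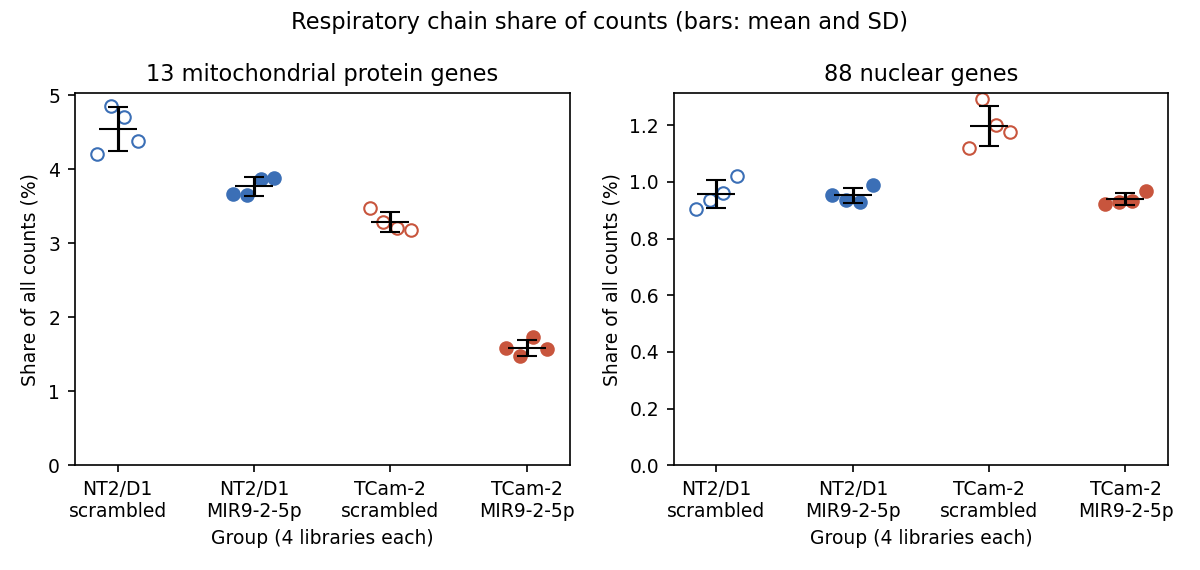
The share of all counts (percent, axis from 0) from the 13 mitochondrial protein genes (left) and the 88 nuclear genes (right) is plotted for each library (open, scrambled; filled, MIR9-2-5p), with black bars for mean and SD over 4 libraries. The mitochondrial share falls without overlap in both lines, from 3.28 to 1.59% in TCam-2, whereas the nuclear share falls in TCam-2 (1.20 to 0.939%) and not in NT2/D1.

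Complex I, the NADH dehydrogenase, has 39 nuclear genes here. In TCam-2 23 (59%) were lower, 5 (12.8%) higher and 11 not called, with a median of -0.30. In NT2/D1 5 (12.8%) were lower, 3 (7.69%) higher and 31 not called, with a median of 0.01. Over all tested genes 32.7% were lower and 33.7% higher in TCam-2, and 29.1% and 30.2% in NT2/D1. Both NT2/D1 shares of complex I were thus below those of all genes. NDUFV1 encodes the subunit that binds NADH. It read 204, 231, 227 and 207 CPM in scrambled TCam-2 libraries and 123, 119, 103 and 109 CPM with MIR9-2-5p, without overlap, a change of -0.90 ± 0.07. In NT2/D1 it changed by -0.07 ± 0.09 and was not called. NDUFS3, another core subunit, changed by -0.77 ± 0.08 in TCam-2 and by 0.04 ± 0.08 in NT2/D1, which was not called. NDUFS1, which carries iron-sulphur clusters along the same electron path, went the other way, with 82.6, 76.4, 81.8 and 75.4 CPM in scrambled and 84.9, 92.3, 97.2 and 91.9 CPM in MIR9-2-5p TCam-2 libraries. The groups were close but did not overlap, and the change was 0.25 ± 0.07 (adjusted p = 0.0044, edgeR). Core subunits were thus not of 1 direction within complex I, and over all complexes 15 of 21 tested nuclear core genes were lower and 3 higher in TCam-2, beside 40 and 3 of the 61 others.

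Among the accessory subunits of complex I, NDUFB7 had the lowest log2 fold change in TCam-2, -1.31 ± 0.11. It read 103, 137, 115 and 111 CPM in scrambled and 50.6, 51.7, 33.6 and 47.1 CPM in MIR9-2-5p libraries, without overlap. In NT2/D1 its groups overlapped and the change was 0.08 ± 0.13. NDUFA4, named for complex I but known as a subunit of complex IV, changed by -0.94 ± 0.08 in TCam-2 and 0.07 ± 0.07 in NT2/D1. NDUFS4, an accessory subunit whose loss causes Leigh syndrome in humans, read 23.1, 28.4, 27.9 and 30.2 CPM in scrambled and 36.9, 35.1, 34.7 and 37.8 CPM in MIR9-2-5p NT2/D1 libraries. In TCam-2 it read 49.8, 67.8, 56.5 and 59.2 CPM in scrambled and 30.4, 35.5, 38.0 and 34.2 CPM in MIR9-2-5p libraries. The groups did not overlap in either line, and the mimic libraries were the higher ones in NT2/D1 and the lower ones in TCam-2. The changes were 0.40 ± 0.09 and -0.72 ± 0.09, and they differed by -1.13 ± 0.14 (adjusted p = 1.5e-07, edgeR). NDUFB3 had a similar pair of changes, 0.40 ± 0.09 and -0.47 ± 0.10.

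NDUFA5, NDUFB9, NDUFA13 and NDUFA4L2 had the interaction results with the smallest adjusted p in the direction of a higher response in TCam-2. That direction was called for 6 nuclear genes in all, where 25.3% of all genes were called, and for 3 without NT2/D1 MIR9-2-5p replicate 1 or 2 or scrambled replicate 3. NDUFB9 changed by -0.42 ± 0.08 in NT2/D1 cells and by -0.10 ± 0.06 in TCam-2, which was not called. NDUFA5 changed by -0.05 ± 0.09 and 0.35 ± 0.10, and its interaction call was lost when any of 7 libraries was left out: NT2/D1 MIR9-2-5p replicate 1 or 2, NT2/D1 scrambled replicate 2 or 3, TCam-2 MIR9-2-5p replicate 3 or 4, or TCam-2 scrambled replicate 1. NDUFA4L2, a paralogue of NDUFA4 known to be induced by hypoxia, had between 2 and 46 counts in a library. It read 1.00, 0.54, 1.19 and 0.79 CPM in scrambled and 0.62, 0.11, 0.60 and 0.23 CPM in MIR9-2-5p NT2/D1 libraries, against 0.29, 0.96, 0.65 and 0.55 CPM and 2.32, 1.55, 1.47 and 1.43 CPM in TCam-2. The TCam-2 groups did not overlap. Its changes were -1.14 ± 0.45 and 1.49 ± 0.33, and the NT2/D1 call was lost without MIR9-2-5p replicate 2 or 4 or without scrambled replicate 1, 3 or 4. It overlaps SHMT2 on the other strand.

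The library kit does not mark strand, and 58 of the 101 genes overlap another annotated gene, 36 of them on the opposite strand, so their counts depend on how shared reads were assigned. NDUFV2, a core subunit beside NDUFV1, read 0.79 to 1.06 CPM in scrambled NT2/D1 libraries, and it overlaps NDUFV2-AS1. NDUFA7, at 0.48 to 1.32 CPM there, overlaps RPS28 and another gene, and NDUFA13, at 5.06 to 6.15 CPM, overlaps YJEFN3 and another gene on its own strand. Their levels and changes are therefore uncertain. NDUFV2 changed by 0.86 ± 0.13 in TCam-2 and NDUFA13 by -0.68 ± 0.15 in NT2/D1. In TCam-2 NDUFA13 changed by 0.30 ± 0.19 and was not called. YJEFN3 itself changed by -0.97 ± 0.12 in NT2/D1 and by 0.06 ± 0.16 in TCam-2, the latter not called. The part of shared reads in the NDUFA13 values was not tested.

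Complex II, succinate dehydrogenase, joins the chain to the citric acid cycle. SDHB, its iron-sulphur subunit, read 38.4, 33.8, 34.6 and 37.5 CPM in scrambled and 49.0, 54.5, 44.4 and 45.2 CPM in MIR9-2-5p NT2/D1 libraries. In TCam-2 it read 56.3, 64.5, 48.8 and 57.9 CPM in scrambled and 32.2, 37.1, 28.7 and 30.4 CPM in MIR9-2-5p libraries. The groups did not overlap in either line, with the mimic libraries higher in NT2/D1 and lower in TCam-2. The changes were 0.42 ± 0.08 and -0.79 ± 0.09, a difference of -1.22 ± 0.13 (adjusted p = 1.8e-08, edgeR). SDHA, the flavoprotein subunit that oxidises succinate, changed by 0.49 ± 0.08 and -0.27 ± 0.08. The membrane anchors behaved otherwise: SDHC was called in TCam-2 alone, at 0.19 ± 0.06, a call lost without scrambled replicate 4, and SDHD, at -0.15 ± 0.10 (NT2/D1) and 0.05 ± 0.09 (TCam-2), was called in neither line.

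Complex III, the cytochrome bc1 complex, had 7 of 10 nuclear genes lower and 0 higher in TCam-2, and 2 lower and 3 higher in NT2/D1. Over all tested genes 32.7% were lower and 33.7% higher in TCam-2, and 29.1% and 30.2% in NT2/D1. The NT2/D1 shares of complex III, 20% and 30%, were below and near those of all genes. UQCRC2, a core protein of the complex, read 119, 117, 124 and 119 CPM in scrambled and 49.9, 61.0, 62.1 and 61.2 CPM in MIR9-2-5p TCam-2 libraries, without overlap, a change of -0.99 ± 0.08. In NT2/D1 it changed by 0.17 ± 0.07 and was not called. UQCRC1, its partner, changed by -0.77 ± 0.07 in TCam-2 and 0.04 ± 0.09 in NT2/D1. UQCRQ and UQCR10, small accessory subunits, rose in NT2/D1 by 0.37 ± 0.10 and 0.29 ± 0.10 and fell in TCam-2, at -0.58 ± 0.09 and -0.49 ± 0.09. The NT2/D1 call of UQCR10 was lost with upper-quartile scaling and without MIR9-2-5p replicate 1 or 2. UQCRH, the hinge protein, and UQCR11 were lower in NT2/D1, at -0.23 ± 0.07 and -0.51 ± 0.09, and not called in TCam-2. UQCRH has a near-identical copy, UQCRHL, so reads could be split between them.

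Complex IV, cytochrome c oxidase, had 8 of 12 tested nuclear genes lower and 0 higher in TCam-2, and 0 of 13 lower and 2 (15.4%) higher in NT2/D1. Over all tested genes 32.7% were lower and 33.7% higher in TCam-2, and 29.1% and 30.2% in NT2/D1. COX5A, a subunit on the matrix side, changed by -1.14 ± 0.07 in TCam-2 and by -0.12 ± 0.07 in NT2/D1, which was not called. COX6B1, which bridges the dimer, read 136, 191, 161 and 163 CPM in scrambled and 96.2, 85.6, 84.1 and 97.0 CPM in MIR9-2-5p TCam-2 libraries, without overlap, a change of -0.80 ± 0.08. In NT2/D1 it changed by 0.08 ± 0.08. Of the nuclear subunits that exist as isoform pairs, the widespread forms carried nearly all counts. COX4I1 changed by -0.69 ± 0.09 in TCam-2 while COX4I2 had no counts. COX7A2 changed by 0.21 ± 0.08 in NT2/D1 and -0.47 ± 0.08 in TCam-2, whereas COX7A1, the form known from heart and skeletal muscle, read 1.95 to 4.64 CPM in scrambled TCam-2 libraries and was not called in either line. The COX7A2 call in NT2/D1 was lost with upper-quartile scaling, without MIR9-2-5p replicate 1, 3 or 4 and without scrambled replicate 1 or 3. COX7A2L, which tethers complexes III and IV into supercomplexes, changed by 0.32 ± 0.07 and -0.48 ± 0.06.

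Complex V had the largest share of nuclear genes lower in TCam-2, 15 of 17 with 0 higher and a median of -0.56; this share was not tested against the other complexes. In NT2/D1 4 (23.5%) were lower, 3 (17.6%) higher and 10 not called. Over all tested genes 32.7% were lower and 33.7% higher in TCam-2, and 29.1% and 30.2% in NT2/D1. The F1 part makes ATP and is built from ATP5F1A to ATP5F1E. ATP5F1A, the alpha subunit, read 864, 934, 884 and 855 CPM in scrambled and 437, 456, 459 and 477 CPM in MIR9-2-5p TCam-2 libraries, without overlap, a change of -0.91 ± 0.06. In NT2/D1 it changed by -0.15 ± 0.06, a call lost without MIR9-2-5p replicate 1, 2 or 4 or scrambled replicate 3 or 4. ATP5F1B, the catalytic beta subunit, changed by -0.56 ± 0.06 in TCam-2 and was not called in NT2/D1, at -0.12 ± 0.06. ATP5PF, the coupling factor of the stalk, changed by 0.21 ± 0.07 in NT2/D1 and -1.15 ± 0.09 in TCam-2. It overlaps GABPA on the other strand, and GABPA was lower in TCam-2, with means of 68.9 CPM in scrambled and 33.5 CPM in MIR9-2-5p libraries, and not called in NT2/D1. The NT2/D1 call of ATP5PF was lost with upper-quartile scaling, without MIR9-2-5p replicate 4 and without scrambled replicate 1. ATP5MK, a small membrane subunit, changed by 0.26 ± 0.09 in NT2/D1 and by -0.52 ± 0.09 in TCam-2. Its NT2/D1 call was lost with upper-quartile scaling, without MIR9-2-5p replicate 1 or 4 and without scrambled replicate 2 or 3. ATP5PD, another stalk subunit, was lower by similar amounts in both lines, at -0.48 ± 0.08 and -0.44 ± 0.08.

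The c-ring of complex V is made of one protein from 3 genes. ATP5MC3, which carries the site printed above, changed by -1.16 ± 0.08 in TCam-2 and -0.22 ± 0.08 in NT2/D1, the latter a call lost without MIR9-2-5p replicate 1 or 3 or scrambled replicate 3 or 4. ATP5MC1 and ATP5MC2, with no 7-base site, changed by -0.58 ± 0.08 and -0.41 ± 0.06 in TCam-2 and were not called in NT2/D1. Over all tested nuclear genes the TCam-2 median was -0.40 for the 8 with a 7-base site and -0.47 for the 74 without. The part of the site in these changes was not tested. ATP5MC3 read 223, 307, 276 and 270 CPM in scrambled and 127, 116, 110 and 117 CPM in MIR9-2-5p TCam-2 libraries, without overlap.

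ATP5F1E encodes the epsilon subunit of F1, at chr20:59025475-59032345 on the minus strand of GRCh38. It was the one nuclear gene that passed the minimum fold of 1.5 in NT2/D1, and it did so upwards. It read 41.2, 44.8, 48.0 and 53.3 CPM in scrambled and 132, 132, 117 and 139 CPM in MIR9-2-5p NT2/D1 libraries. In TCam-2 it read 253, 372, 315 and 308 CPM in scrambled and 172, 185, 149 and 171 CPM in MIR9-2-5p libraries. The groups did not overlap in either line, with the mimic libraries higher in NT2/D1 and lower in TCam-2. The changes were 1.47 ± 0.09 and -0.84 ± 0.09, and the difference, -2.33 ± 0.13, had the smallest adjusted p of the interaction among the 96 genes tested (3.7e-13, edgeR). CTSZ, a cathepsin gene of the same stretch of chromosome 20, changed by 1.68 in NT2/D1 and by -1.01 in TCam-2. PRELID3B, which neighbours ATP5F1E, changed by 0.38 and 0.39. TUBB1, which overlaps ATP5F1E on the other strand, had a mean of 0.392 CPM in scrambled NT2/D1 libraries.

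**Figure D4:**
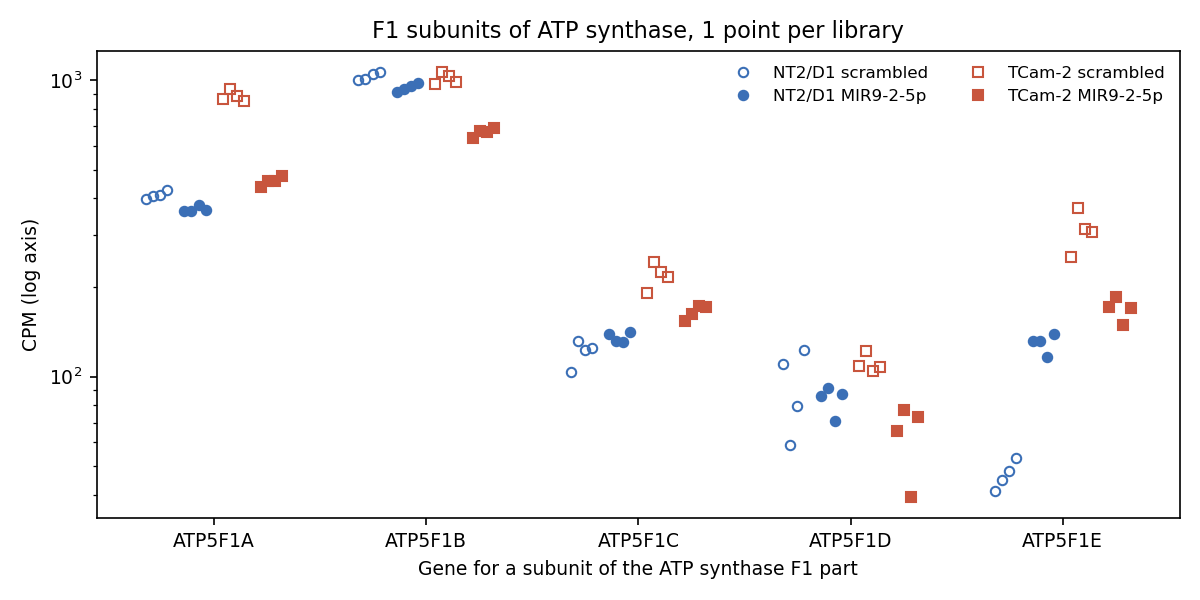
CPM of the 5 genes for the F1 part of ATP synthase (log axis) is plotted with 1 point per library (blue circles, NT2/D1; red squares, TCam-2; open, scrambled; filled, MIR9-2-5p). The MIR9-2-5p points lie below the scrambled points in TCam-2 for all 5 genes, and ATP5F1E alone stands well above its scrambled points in NT2/D1, 117 to 139 against 41.2 to 53.3 CPM.

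In all, 13 nuclear genes were higher in NT2/D1 and lower in TCam-2, and 5 were lower in both: NDUFA11, NDUFB1, ATP5F1A, ATP5MC3 and ATP5PD. Beside the calls given above, the NT2/D1 call of NDUFA11 was lost without MIR9-2-5p replicate 2 or 3 or scrambled replicate 4, and that of CYC1, 0.28 ± 0.11, with upper-quartile scaling, without MIR9-2-5p replicate 1 or 2 and without scrambled replicate 2 or 3. A further 37 were lower in TCam-2 and not called in NT2/D1, and 16 were called in neither. Over all tested genes 29.1% were lower and 30.2% higher in NT2/D1, and 32.7% and 33.7% in TCam-2. The share of all genes in each combination of calls was not computed. Whether these counts are particular to the respiratory chain was not tested. The difference of responses was itself called lower in TCam-2 for 46 of 83 nuclear genes (55.4%), where 27.9% of all genes were called. Its median was -0.48. Against the minimum fold of 1.5 it was called lower for 20 of the 83, where 14.1% of all genes were called. In the other direction that rule called 1, where 12.7% of all genes were called. With upper-quartile scaling 9 of the 15 genes called in opposite directions in the 2 lines remained so, and with DESeq2 all 15.

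The scrambled libraries show how the lines differ without the mimic. These libraries also serve as controls above, so the responses share them. In scrambled TCam-2 against scrambled NT2/D1 cells 48 of 83 nuclear genes were higher and 14 lower, where 39.4% and 39.8% of all 17740 tested genes were called, with a median of 0.37. Against the minimum fold of 1.5, 26 were higher and 4 lower, where 25.4% and 26.5% of all genes were called. Of the 13 mitochondrial genes 9 were lower, 0 higher and 4 not called, with a median of -0.31. MT-CYB read 1111, 1158, 1086 and 1037 CPM in TCam-2 and 2112, 2451, 2385 and 2253 CPM in NT2/D1, without overlap, a difference of -1.10 ± 0.06. ATP5F1E was 2.71 ± 0.10 log2 units higher in TCam-2. Per kilobase of canonical transcript, the median scrambled level was 3510 CPM per kb over the mitochondrial and 79.8 over the nuclear genes in NT2/D1, and 1865 and 94.6 in TCam-2. UQCRH stood highest among the nuclear genes in both lines, at 1250 ± 95 (SD, n = 4) and 1375 ± 177 CPM per kb, levels within the spread of each other. MT-CO2 stood highest of all, at 9378 ± 465 and 9086 ± 704 CPM per kb. MT-CO1 came next, and these levels depend on the canonical transcript chosen and, in the mitochondrial genome, on reads shared by overlapping genes.

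The line difference varied by chromosome. The 4 genes on chromosome 8 were all higher in TCam-2: UQCRB by 2.21 ± 0.11, COX6C by 1.96 ± 0.11, NDUFB9 by 1.52 ± 0.08 and CYC1 by 1.06 ± 0.11. The median of all 650 tested chromosome 8 genes was 0.79. Of all genes tested in this comparison 39.4% were higher and 39.8% lower. On chromosome 5 all 6 respiratory chain genes were higher, with a median of 1.01, where the median of all 822 tested genes was 0.25. On chromosome 7, where the median of all 897 tested genes was -0.58, NDUFA5, NDUFB2 and ATP5MF were lower and NDUFA4 higher.

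**Figure D5:**
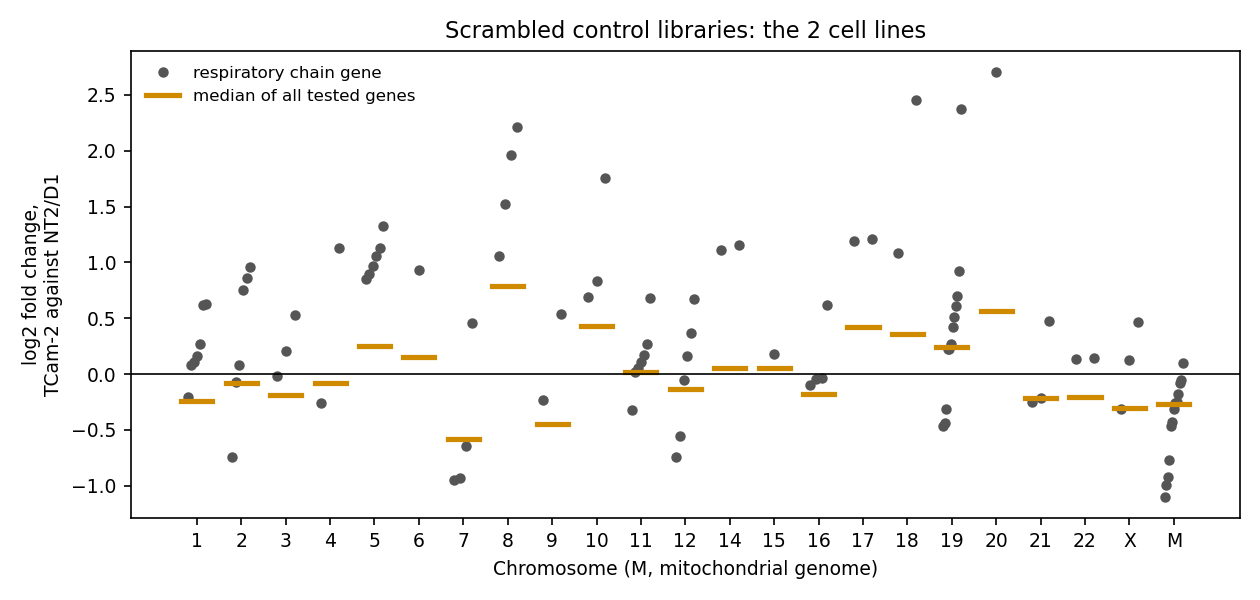
The log2 fold change of scrambled TCam-2 against scrambled NT2/D1 cells is plotted for each tested respiratory chain gene (grey points) by chromosome, with the median of all tested genes on that chromosome (orange bars). The 4 chromosome 8 genes, 1.06 to 2.21, lie above a chromosome median of 0.79, and the mitochondrial genes (M) lie mostly below 0.

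Genes that serve the chain were listed by role. The lists are not fully separate. COX7A2L, a supercomplex factor, is also one of the complex IV genes above. HIGD1A is listed for complex IV assembly and for supercomplexes, and TMEM70 for complex I and complex V assembly. The counts here cover each whole list. They stand beside 32.7% lower and 33.7% higher over all genes tested in TCam-2, and 29.1% and 30.2% in NT2/D1. Of 17 complex I assembly factors, 11 were lower and 1 higher in TCam-2, and 2 lower and 4 higher in NT2/D1. NDUFAF3, an assembly factor of complex I, rose by 1.21 ± 0.11 in NT2/D1 and changed by -0.78 ± 0.10 in TCam-2. Of 24 tested complex IV assembly factors 9 (37.5%) were lower and 5 (20.8%) higher in TCam-2, where the share lower was near that of all genes, and 11 (45.8%) and 2 (8.33%) in NT2/D1. SCO1, a copper chaperone, changed by -0.77 ± 0.07 in NT2/D1 and by 0.28 ± 0.08 in TCam-2, the latter a call lost without scrambled replicate 4. SMIM20, another assembly factor, changed by -0.89 ± 0.09 and -0.45 ± 0.11, and COX17, which delivers copper, by -0.36 ± 0.08 and -0.73 ± 0.08. COA4, also of this list, changed by -0.24 ± 0.07 and -0.64 ± 0.06. ECSIT, of complex I assembly, was called in TCam-2 alone, at -1.08 ± 0.12, and NDUFAF7 in both lines, at -0.61 ± 0.09 and -0.34 ± 0.06. In the smaller lists, of 4 genes for complex II assembly 1 was lower and 0 higher in TCam-2, and 2 and 0 in NT2/D1. Of 6 for complex III assembly 3 were lower and 1 higher in TCam-2, and 2 and 0 in NT2/D1. Of 5 for complex V assembly and inhibition 1 was lower and 1 higher in each line. Of 3 supercomplex factors 2 were lower and 0 higher in TCam-2, and 0 and 1 in NT2/D1. COX7A2L was among the 2 lower in TCam-2 and was the 1 higher in NT2/D1.

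Of 15 genes for mitochondrial transcription and DNA maintenance, 12 were lower and 1 higher in NT2/D1, and 7 lower and 3 higher in TCam-2. TFAM, which packages mitochondrial DNA and is needed for its transcription, changed by -0.26 ± 0.09 in NT2/D1 and 0.62 ± 0.07 in TCam-2, where all 13 mitochondrial protein genes were lower. Its NT2/D1 call was lost without MIR9-2-5p replicate 1 or 2 or scrambled replicate 2 or 3. MGME1, a nuclease of mitochondrial DNA maintenance, changed by -0.24 ± 0.09 in NT2/D1 and by 0.73 ± 0.06 in TCam-2, and its NT2/D1 call was lost without MIR9-2-5p replicate 1, 2 or 4 or scrambled replicate 2 or 3. TOP1MT, the mitochondrial topoisomerase, and MTERF3, a transcription factor of mitochondria, were lower in both lines, at -0.96 ± 0.11 and -0.80 ± 0.12 in NT2/D1 and -0.81 ± 0.10 and -0.55 ± 0.08 in TCam-2. POLRMT, the mitochondrial RNA polymerase, changed by -0.37 ± 0.15 in NT2/D1 and by -0.61 ± 0.13 in TCam-2, and its NT2/D1 call was lost without MIR9-2-5p replicate 1, 3 or 4 or scrambled replicate 1 or 4. Of 20 genes for mitochondrial RNA processing and stability 9 were lower and 0 higher in NT2/D1, and 12 lower and 1 higher in TCam-2. GRSF1 and TBRG4, RNA-binding proteins of mitochondria, changed by -0.75 ± 0.07 and -0.87 ± 0.07 in TCam-2 and by -0.38 ± 0.07 and -0.28 ± 0.08 in NT2/D1, where FASTKD1 changed by -0.56 ± 0.09. SLIRP, which with LRPPRC stabilises mitochondrial messenger RNAs, changed by -0.45 ± 0.12 and -0.89 ± 0.09, and LRPPRC by -0.25 ± 0.07 and -0.12 ± 0.07, the latter not called.

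Of 9 regulators of mitochondrial biogenesis, 5 were lower and 3 higher in TCam-2, and 2 lower and 1 higher in NT2/D1. PPARGC1A, the coactivator PGC-1alpha known to raise respiratory chain gene expression, rose from 4.37 to 43.1 CPM in TCam-2, a change of 3.35 ± 0.12, and by 1.29 ± 0.21 in NT2/D1. PPARGC1B, a related coactivator, changed by -0.77 ± 0.11 in NT2/D1 and 0.55 ± 0.09 in TCam-2. GABPA, the DNA-binding subunit of GABP, was lower in TCam-2 as given above, and MYC changed by -1.14 ± 0.11 there. Of 14 genes for electron carriers and coenzyme Q synthesis 5 (35.7%) were lower and 3 (21.4%) higher in TCam-2, and 3 (21.4%) and 2 (14.3%) in NT2/D1, near or below the shares of all genes. CYCS, cytochrome c, changed by -0.53 ± 0.09 in NT2/D1 and 0.28 ± 0.07 in TCam-2. COQ10B and COQ8B, genes of coenzyme Q function, were each called in a single line, the former at 0.64 ± 0.08 in NT2/D1 cells, the latter at -1.01 ± 0.11 in TCam-2. COQ3, an enzyme of coenzyme Q synthesis, was lower in both, at -0.48 ± 0.13 and -0.60 ± 0.13. Of 18 genes of the citric acid cycle and pyruvate dehydrogenase, which supply NADH and succinate, 9 were higher and 1 lower in NT2/D1, and 11 lower and 3 higher in TCam-2. IDH2, which makes NADPH in mitochondria, changed by 1.09 ± 0.09 and -1.93 ± 0.17, and PDHB, a pyruvate dehydrogenase subunit, by -0.02 ± 0.07 and -1.42 ± 0.07. SUCLG1, of succinyl-CoA ligase, changed by 0.52 ± 0.08 and -0.26 ± 0.07.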

How the data were processed

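The deposited values were raw counts for each gene in 16 libraries, which the authors obtained by STAR alignment to GRCh38 and featureCounts. The submitters' processing notes also name Trim Galore, cutadapt and FastQC, whereas the methods name fastp. No source used here gives the annotation release or whether counting used strand. Of 58735 IDs, 58207 matched GENCODE release 44, which gave names, positions and transcripts and may not be the release counted on.

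Counts were fitted with edgeR 4.0.16 in R 4.3.3 (TMM, filterByExpr with minimum count 10 and minimum total 15, robust quasi-likelihood), each comparison on its own libraries, with Benjamini-Hochberg adjustment over all tested genes and calls at 0.05. DESeq2, which the methods name, served as an alternative (version 1.42.0). The standard error is the size of the log2 fold change over the root of its F statistic. CPM used TMM factors over all 16 libraries. Shares of counts were compared by exact two-sided permutation tests in SciPy 1.17.1. The fit was tested on counts simulated with the dispersions that edgeR had estimated. Such a test cannot show how well the calls hold for the real libraries.

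The members and gene lists were chosen with earlier results of these data known. Genes named were the 13 mitochondrial genes; per complex and line the 2 nuclear genes with the smallest adjusted p in each direction; isoforms called; the 4 with the smallest adjusted p of the interaction in each direction; and the 2 of each list with the smallest adjusted p in each line. Of the smaller lists only counts are given. NDUFS1, NDUFS3, NDUFB7, NDUFA7, COX6B1 and ATP5F1B, the neighbours of ATP5F1E, COX7A1, and POLRMT, SLIRP, LRPPRC and MYC were chosen after their values were seen. The rules picked no nuclear genes for the comparison of scrambled libraries, where nuclear genes were named by hand. They also did not pick ATP5MK, CYC1 or NDUFA11. The labels call replicates separate samples and the methods call them biological, but same-numbered libraries did not deviate together, and numbers were not used as pairs. No 2 libraries of a group agreed within sampling noise. One gene is not reported by name here.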

Additional observations from a re-analysis of the deposited data

Results flagged for a closer look

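Of 96 groups of 4 libraries tested for a library far from the other 3, where chance gives about 1 in 20, 5 had one. MT-ND4L read 1280 CPM in scrambled TCam-2 replicate 1, and MT-ATP8 read 124.5 CPM in MIR9-2-5p NT2/D1 replicate 2. In MIR9-2-5p TCam-2 replicate 1, UQCRC2 read 49.9 CPM, the lowest of its group, and NDUFA4L2 read 2.32 CPM, the highest. The share of counts from the mitochondrial ribosomal RNA genes was 0.497% in MIR9-2-5p NT2/D1 replicate 2, the lowest of its group.

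The responses of the 2 lines differed by the interaction test in edgeR for 46 nuclear genes with the lower response in TCam-2 and 6 with the higher, and for 13 mitochondrial genes with the lower response and 0 with the higher. Of all genes tested, 27.9% were called with the lower response and 25.3% with the higher. Among the respiratory chain genes with such a difference, 15 were called in opposite directions in the 2 lines. The share of all genes called in opposite directions was not computed. The difference, TCam-2 minus NT2/D1 on the log2 scale, was -1.11 for MT-ND5, -1.07 for NDUFA12, -0.89 for NDUFB3, -1.13 for NDUFS4 and 2.62 for NDUFA4L2, which has few counts. It was -0.78 for SDHA, -1.22 for SDHB, -0.63 for CYC1, -0.80 for UQCR10 and -0.97 for UQCRQ. It was -0.70 for COX7A2, -0.81 for COX7A2L, -2.33 for ATP5F1E, -0.80 for ATP5MK and -1.39 for ATP5PF.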

How the results depend on the processing

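The precision of each value is limited by 4 libraries a group, and counting error alone limits genes such as NDUFA4L2. Counts of called genes were recomputed with DESeq2, RLE and upper-quartile factors, no filter, the mitochondrial genes left out, a minimum fold of 1.5, the replicate block and, within a line and between scrambled libraries, 1 fit of all 16 libraries. Of 3129 alternative values for 194 called gene results, 2880 kept direction and side of the threshold, 249 kept direction and lost the call, and 0 reversed. With a minimum fold of 1.5, nuclear genes lower and higher numbered 0 and 1 for NT2/D1, 18 and 2 for TCam-2, 20 and 1 for the interaction and 4 and 26 between scrambled libraries. The mitochondrial genes then numbered 0 lower and 0 higher in NT2/D1, 8 lower in TCam-2, 7 lower for the interaction and 4 lower between scrambled libraries. Upper-quartile factors gave 8 higher nuclear genes and 0 higher mitochondrial genes in NT2/D1. Replicate numbers did not pair the samples, since correlations of same-numbered deviations ran from -0.196 to 0.0397. With the replicate block, the nuclear genes lower and higher were 9 and 10 for NT2/D1, 53 and 6 for TCam-2, 47 and 5 for the interaction and 14 and 47 between scrambled libraries, and mitochondrial genes lower numbered 8, 11, 13 and 9. Of the 15 genes called in opposite directions 12 remained so with the block, which ended the NT2/D1 calls of COX7A2, UQCR10 and CYC1. It also ended those of ATP5F1A, ATP5MG, SDHAF1, MGME1 and POLRMT in that line, and of MT-ATP8, MT-ND4L, NDUFV3, ATP5ME, ATP5IF1 and TTC19 in TCam-2.

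Leaving out 1 library at a time gave, in NT2/D1, 6 to 13 lower and 9 to 14 higher nuclear genes and 7 to 8 lower and 0 to 2 higher mitochondrial genes. In TCam-2 it gave 53 to 58 and 4 to 9 nuclear genes and 12 to 13 lower mitochondrial genes. For the interaction it gave 43 to 51 and 3 to 8 nuclear genes, and between scrambled libraries 11 to 16 and 42 to 52, with 13 and with 8 to 10 lower mitochondrial genes. The difference in the share of all mitochondrial counts ran from -0.846 to -0.597 percentage points in NT2/D1, -1.87 to -1.72 in TCam-2 and -1.46 to -1.21 between scrambled libraries. That of the nuclear share ran from -0.0202 to 0.0189, -0.284 to -0.227 and 0.210 to 0.268. In NT2/D1 the nuclear share difference took the other sign without MIR9-2-5p replicate 2 (0.00269) or 3 (0.00457) or scrambled replicate 4 (0.0189). With 3 libraries against 4 the exact permutation test cannot go below 0.0571, so it says nothing about these. The 2 ribosomal RNA genes alone gave 0.0591 points in NT2/D1, the opposite direction to the whole mitochondrial share (-0.717), and -0.0856 in TCam-2, no longer past the threshold (exact p = 0.0857, permutation test). The causes of these changes were not tested.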
